A study of Mus musculus with 4 samples.

Results

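Vascular smooth muscle was examined in the uninjured tibial muscle of Nse-Bmp4 mice, through the 105 capture spots of the day 0 section that carried the highest share of smooth muscle transcripts. Spatial RNA was read on 10 µm fresh frozen sections with capture spots 50 µm across, so that a spot holds several cells of different types. For each spot of at least 2000 UMIs (unique molecular identifiers, the count of captured transcripts) the UMIs of Myh11, Cnn1, Tagln and Acta2 were summed and divided by the spot total. The smooth muscle spots were chosen by this score alone, as those at or above its 95th percentile, 0.0868% of spot UMIs. They were 105 of the 2090 spots that met the depth minimum, of 2107 in the section and of 10835 in the series, and 1985 spots of the section served for comparison.

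All 4 sections came from C57BL/6 mice 6 to 8 weeks old that carried Nse-Bmp4, a murine Bmp4 cDNA under the rat neuron-specific enolase promoter. The day 0 section was from uninjured muscle, and the other sections were from muscle taken 1, 3 and 7 days after cardiotoxin injury. There was 1 section per day and no wild-type section, and the labels state that 3 tibial muscles were mixed for a group. No spread between animals could be measured, spots of 1 section are not replicates, and the values used to choose the spots came from the same counts. All values below are therefore descriptions without a test, and intervals are exact 95% intervals that cover counting error only.

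Vascular smooth muscle cells form the contractile wall of arteries, arterioles and veins, outside the endothelium that lines the vessel. They shorten when calcium activates myosin light chain kinase, relax through nitric oxide and cGMP, and lay down elastic fibres. Arteries of skeletal muscle have a thick, compact muscle layer, veins a thin one, and capillaries are wrapped by pericytes in place of smooth muscle. Larger vessels often run beside nerves and fat in the connective tissue between muscle bundles.

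The score was spread unevenly among the 105 spots. It ranged from 0.0870% to 0.990% with a median of 0.123%, against a median of 0.0170% in the other spots. The 5 highest spots reached 0.990%, 0.973%, 0.967%, 0.930% and 0.925%, and the next spot was at 0.524%. These 5 spots stood clearly above all others, and results that rest on them are given again without them. At the lower edge, the last spot inside the threshold had 2 marker UMIs of 2300 (0.0870%) and the next had 19 of 21603 (0.0880%), while the nearest spot outside had 35 of 40415 (0.0866%). The threshold thus cut a continuous range of values. Depth was alike, with a median of 21973 UMIs in the smooth muscle spots and 21053 in the others.

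**Figure D1:**
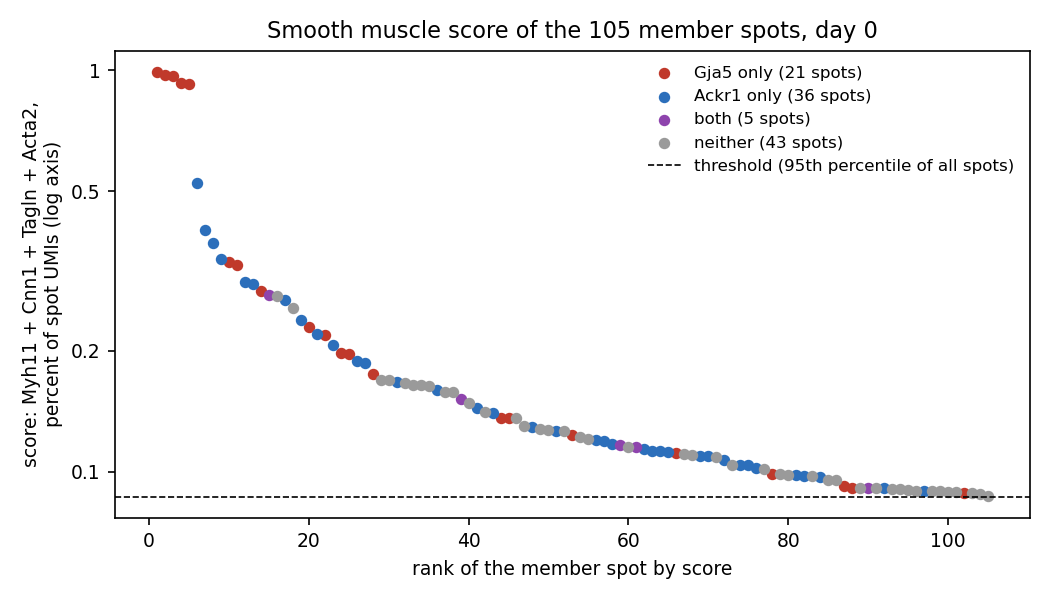
Score of each of the 105 smooth muscle spots of the day 0 section (summed UMIs of Myh11, Cnn1, Tagln and Acta2 as percent of spot UMIs, log axis) against its rank. Colours mark spots with a UMI of Gja5 but not Ackr1 (21 spots), of Ackr1 but not Gja5 (36), of both (5) or of neither (43), and the dashed line is the threshold; the 5 highest spots, all above 0.9%, carried Gja5 and no Ackr1.

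The genes that chose the spots are given first. Acta2, smooth muscle α-actin, was at 1235 CPM (a gene's summed UMIs scaled to a common total, the usual counts-per-million unit) in the smooth muscle spots and 151 CPM in the others. It had from 1 to 134 UMIs per smooth muscle spot with a median of 18, and made up 63.0% of their marker UMIs, so the score was weighted towards this gene. Tagln, the actin-binding protein transgelin, was at 449 and 37.5 CPM. Myh11, the smooth muscle myosin heavy chain, was at 235 and 17.6 CPM, and 12 of the 105 spots held none. Cnn1, calponin, was at 42.9 and 1.81 CPM and was seen in 35 spots. All 4 markers were present in 33 spots and at least 3 of them in 92. When the spots were chosen with 1 marker left out of the score, the omitted gene was still concentrated in them. Myh11 was then 12.4-fold higher than in the remaining spots, Cnn1 20.8-fold, Tagln 11.5-fold and Acta2 7.28-fold. Of the 105 spots, 96, 100, 98 and 73 were chosen again when Myh11, Cnn1, Tagln and Acta2, respectively, were left out.

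Transcripts of muscle fibres were abundant in these spots too. Genes of fast fibres made up 22.4% of UMIs in the smooth muscle spots and 29.0% in the others. They were at least 8.19% of UMIs in each spot chosen here, beside the marker transcripts. Most genes took a larger share in the smooth muscle spots, and the median ratio of CPM to the other spots was 1.24. On totals without mitochondrial, haemoglobin and myofibre genes the median was 1.08, and the cause of the shift was not tested. Ratios below should be read against the median of 1.24 over the 10828 genes with at least 100 UMIs. Of these genes, 13.3% were at least 2-fold higher in the smooth muscle spots and 0.656% were at a ratio of 0.5 or lower, that is 1443 and 71 genes. After scaling with DESeq2 size factors, which set the median to 1, the calls were 684 genes (6.32%) and 172 genes (1.59%). The share of higher genes among those called was 95.3% before and 79.9% after this scaling, and 80.5% with edgeR's TMM factors.

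The contractile genes outside the rule were higher as a group. Of 12 listed genes, 10 passed the minimum of 100 UMIs, and 8 of these were at least 2-fold higher under either scaling, with a median ratio of 4.30. Myl9, the regulatory myosin light chain of smooth muscle, was at 475 CPM against 108, a ratio of 4.39 (95% interval 4.11 to 4.69), with 0 to 77 UMIs per spot and a median of 8. Mylk, the kinase that phosphorylates this light chain, was at 128 CPM against 22.9 (ratio 5.60). Ppp1r14a, which inhibits the phosphatase acting against Mylk, was at 81.5 CPM against 10.8 (ratio 7.52, 6.31 to 8.94). Contraction genes were therefore seen at the level of the motor, its kinase and its phosphatase inhibitor. Lmod1, an actin filament nucleator of smooth muscle, was at 37.3 CPM against 5.32 (ratio 7.00). Flna and Csrp1, which bind and bundle actin, had ratios of 4.61 and 4.20, and Cald1 one of 3.44. Actg2, the γ-actin of smooth muscle, was below the minimum with 94 UMIs in the section, of which 50 lay in 22 of the smooth muscle spots. Itga8, an integrin subunit, was likewise below it, with 23 UMIs in the smooth muscle spots. Smtn and Synpo2 did not stand apart, at ratios of 1.35 and 0.908. Synpo2 is also a gene of the sarcomeric Z-disc and was at 313 CPM in the smooth muscle spots and 344 CPM in the rest. The list summed to 3001 CPM against 1150 CPM, a ratio of 2.61 (2.55 to 2.68). Over the 54 smooth muscle spots that did not rank in the top 5% for fibroblast, pan-endothelial, Schwann cell or adipocyte genes, it was 1.94.

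Most regulators of this programme did not reach 2-fold, with a median ratio of 1.06 over the 6 with at least 100 UMIs. Srf, serum response factor, was at 21.2 CPM against 20.4, and its cofactor gene Mrtfa at 43.8 against 40.3. Mrtfb had a ratio of 1.46 (1.19 to 1.78), and Mef2c and Nexn had ratios of 0.980 and 0.831. Muscle fibre transcripts were abundant in all these spots, and the part of fibres in the regulator counts was not tested. Myocd, the smooth muscle cofactor, had 2 UMIs in the smooth muscle spots and 2 in all the others, too few for a comparison. Foxs1, a forkhead factor, was the gene that passed 2-fold among the 6 of this list with at least 100 UMIs, at a ratio of 3.25. Serum response factor binds the CArG box, and the promoters of 2 genes that were higher are shown because they hold it. A box was sought in the 250 bases before each start site in the RefSeq promoter table, with a core of A and T only or with 1 of 6 core letters changed to G or C. The motif reads the same on either strand and the matches did not overlap. Of 16 smooth muscle genes looked up, 13 had an entry, and Myh11, Tagln and Actg2 had none. A box was found for 3 of the 13 (Acta2, Myl9 and Myl6) and for 9.78% of the 27025 genes in the table. With a core of A and T only it was found for 2 of the 13 (Myl9 and Myl6) and for 1.62% of genes. The matches are letters in a window and were not tested as binding sites. In the sequences, 5′ to 3′ on the coding strand, capitals mark the boxes, which begin 84 and 34 bases before the start of Acta2 and 161 and 99 bases before that of Myl9. The windows are chr19:34255374-34255623 on the minus strand for Acta2 and chr2:156775214-156775463 on the plus strand for Myl9, in GRCm38.
Acta2: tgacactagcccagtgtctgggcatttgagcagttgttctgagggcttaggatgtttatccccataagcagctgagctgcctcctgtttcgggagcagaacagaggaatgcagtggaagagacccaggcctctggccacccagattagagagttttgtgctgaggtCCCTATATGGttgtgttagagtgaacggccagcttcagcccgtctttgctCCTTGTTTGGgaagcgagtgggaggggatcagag
Myl9: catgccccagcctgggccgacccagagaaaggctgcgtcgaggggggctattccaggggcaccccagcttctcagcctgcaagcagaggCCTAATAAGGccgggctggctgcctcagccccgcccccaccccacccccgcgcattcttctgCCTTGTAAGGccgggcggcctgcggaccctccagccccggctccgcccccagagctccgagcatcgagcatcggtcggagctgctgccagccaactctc

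Genes for calcium handling and vessel tone followed the contractile genes in part. Pln, phospholamban, which restrains the calcium pump of the sarcoplasmic reticulum, had 37 UMIs in the smooth muscle spots and 27 in all the others, and was found in 18 of the 105. Cacna1c, the pore subunit of the L-type calcium channel, was at 9.97 CPM against 2.53 (ratio 3.94), and Itpr1, the receptor that releases stored calcium, at 24.7 against 9.41 (ratio 2.62). Kcna5 and Kcnma1, potassium channels, had ratios of 1.25 and 1.07. The nitric oxide and cGMP genes were higher in 5 of 6 cases, with a median ratio of 4.21. Nos3, the endothelial enzyme that makes nitric oxide, was at 51.1 CPM against 12.2 (ratio 4.20). Gucy1a1 and Gucy1b1, which together form its receptor guanylate cyclase, had ratios of 5.36 and 3.70. Pde5a and Pde3a, which break down cyclic nucleotides, had ratios of 4.22 and 4.45, and the cGMP kinase gene Prkg1 one of 1.66. Enzyme, receptor and breakdown genes were thus all higher in these spots. Among receptors for vasoactive ligands, 3 of 7 were at least 2-fold higher. They were Npy1r for neuropeptide Y (ratio 5.55), Ednra for endothelin (3.85) and Npr1 for natriuretic peptide (3.19). Agtr1a, the angiotensin receptor, was at 1.41, and the adrenergic receptor genes Adra1a, Adra1b and Adra1d had 0 to 2 UMIs each in the smooth muscle spots.

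Of the elastic and basement membrane genes listed, elastin had the largest ratio. Eln was at 1006 CPM in the smooth muscle spots and 97.0 CPM in the others, a ratio of 10.4 (9.84 to 10.9). It had from 0 to 227 UMIs per smooth muscle spot with a median of 11, against a median of 1 in the others, and 103 of 105 spots held it. Without the 5 highest spots the ratio was 8.83. With every spot thinned to 2000 UMIs, 66.4% of the smooth muscle spots and 15.7% of the others had an Eln UMI. Fbln5 and Fbln2, fibulins of the elastic fibre, had ratios of 4.22 and 3.27, Ltbp4 2.79 and Lox, which cross-links elastin, 2.34. Fbn1, Mfap4 and Mfap5, components of microfibrils, ranged from 1.50 to 1.88. Of the 9 elastic genes, 6 were at least 2-fold higher, and 4 after size factors. The fibroblast list, whose cells also make elastic fibres, was at 18493 CPM in the smooth muscle spots and 8340 CPM in the others. Of its 12 genes 5 were at least 2-fold higher, 1 of them after size factors, with a median ratio of 1.86. The part of fibroblasts in the elastic genes was not tested. In the spots with none of the other top-5% scores, Eln was at 458 CPM, 4.72 times that of the other spots. Among basement membrane genes 2 of 9 passed 2-fold, Lama5, a laminin chain of vessel walls, at 4.22 and Lamb2 at 2.01. After size factors 1 of the 9 passed.

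**Figure D2:**
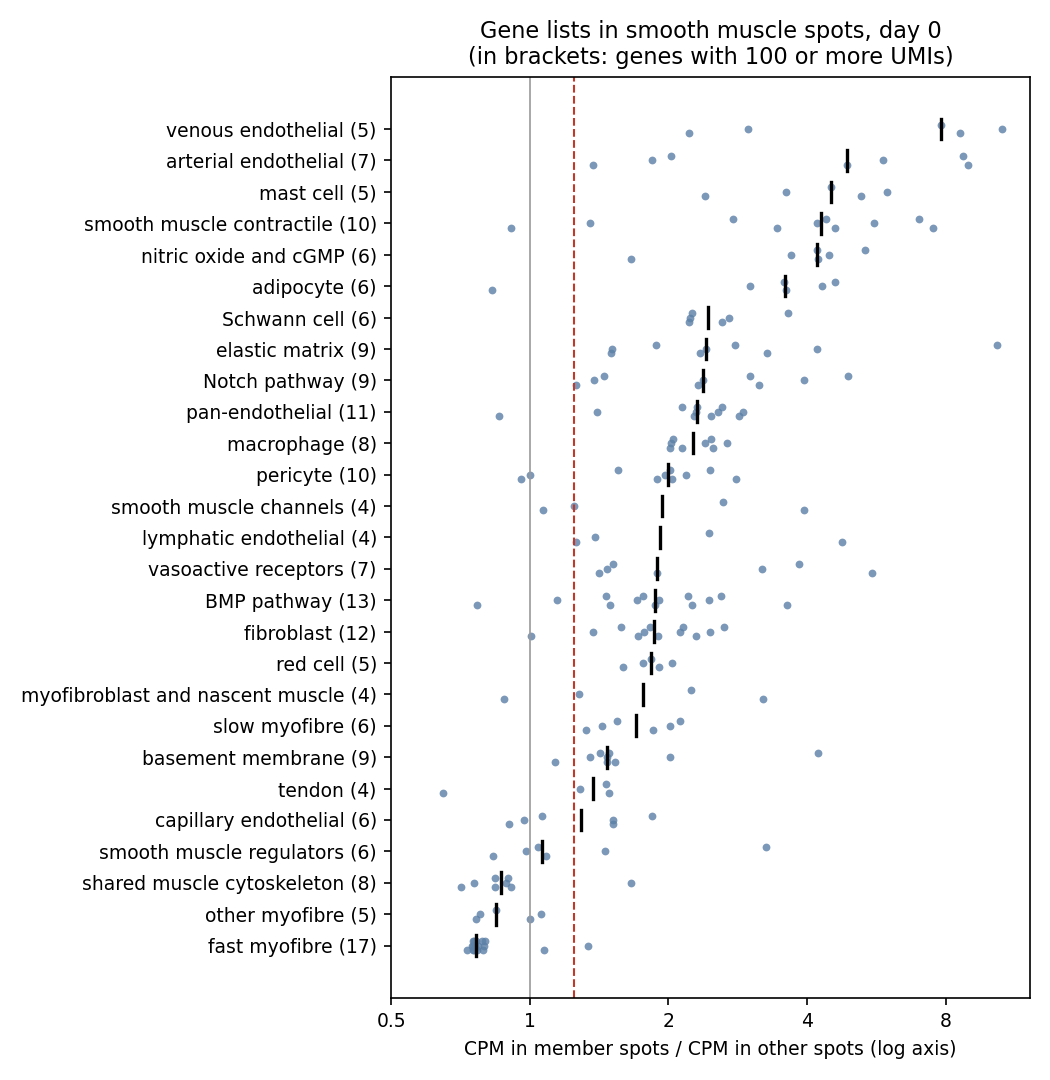
Ratio of CPM in the 105 smooth muscle spots to CPM in the 1985 other spots of the day 0 section (log axis), by gene list. Points are genes with at least 100 UMIs, black bars the list medians, the red dashed line the median of all 10828 genes (1.24); venous and arterial endothelial genes had the highest list medians (7.82 and 4.90) and fast fibre genes the lowest (0.762).

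Endothelial genes of larger vessels went with the smooth muscle genes, and those of capillaries less so. All 5 venous genes that passed the minimum were at least 2-fold higher, with a median ratio of 7.82, and so were 5 of 7 arterial genes, with a median of 4.90. After size factors 4 of each passed. The venous list summed to 6.90 times the level of the other spots, and to 2.50 times over the 54 smooth muscle spots outside the fibroblast, pan-endothelial, Schwann cell and adipocyte tops. Vwf, von Willebrand factor, was at 267 CPM against 25.2, a ratio of 10.6 (9.58 to 11.7). It had 0 to 71 UMIs per spot with a median of 2. Lrg1, a glycoprotein of venous endothelium, was at 191 CPM against 22.3 (ratio 8.58), and Ackr1, the chemokine-binding receptor of venules, at 57.2 against 7.32 (7.82). Of the arterial genes, Gja5, connexin 40, was at 22.1 CPM against 2.53 (ratio 8.74) and Stmn2, a stathmin, at 40.3 against 4.50 (8.95). Sema3g, an arterial semaphorin, was at 58.9 against 10.1 (5.84) and Gja4, connexin 37, at 32.1 against 6.55 (4.90). Genes of all endothelium were raised less, with 9 of 11 at least 2-fold higher, 4 after size factors, and a median ratio of 2.31. Pecam1 was at 2.56, Cdh5 at 1.40 and Kdr at 0.855. Of 6 capillary genes none passed 2-fold, and the list summed to 1.49 times (1.43 to 1.54) the level of the other spots. Ly6c1, Aqp1, a water channel, and Cd36, a fatty acid transporter, were at 1.84, 1.52 and 1.51. Gpihbp1, which anchors lipoprotein lipase in capillaries, was at 111 CPM against 114, Rgcc at 40.3 against 37.9 and Car4 at 6.07 against 6.74. The last 3 genes lay below the median ratio of all genes and the former 3 above it.

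Pericyte genes fell between these groups. Of 10 genes, 5 were at least 2-fold higher and 1 after size factors, with a median ratio of 1.99. Kcnj8 and Abcc9, which together form the pericyte potassium channel, were at 20.4 CPM against 20.3 and at 117 against 122, and lay below the median of all genes. Rgs5, the most abundant gene of the list, was at 556 CPM against 358 (ratio 1.55). Cspg4, the proteoglycan NG2, was at 2.80 and Mcam at 2.46. Notch genes were at least 2-fold higher in 6 of 9 cases, and in 4 after size factors, with a median ratio of 2.38. Jag1, the ligand, was at 4.90, Notch3, the receptor of mural cells, at 3.94, and the targets Heyl and Nrarp at 3.14 and 3.01. The ligand Dll4 and the target Hes1 were at 1.44 and 1.26. BMP genes were of interest because the mice carry a Bmp4 transgene. Bmp4 itself was at 15.6 CPM against 9.15 (ratio 1.71, 1.18 to 2.40), with 36 UMIs in the smooth muscle spots. These counts do not separate transcripts of the transgene from those of the mouse's own Bmp4. The transgene carries an SV40 polyadenylation signal, and whether its transcripts were counted is not known. The genes that BMP signals induce, Id1, Id2 and Id3, were at 2.25, 3.62 and 2.60, and the endothelial receptor gene Acvrl1 at 2.45. In all, 5 of 13 BMP genes were at least 2-fold higher, and 2 after size factors.

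Along the whole range of the score these groups separated step by step. Venous endothelial genes rose from 70.2 CPM in the lower 50% of spots to 255 CPM between the 90th and 95th percentiles and 869 CPM in the top 2%. Elastic genes went from 595 to 1002 and 3201 CPM over the same bins, and contractile genes outside the rule from 1054 to 1631 and 4066 CPM. Spots just under the threshold were therefore already higher than the lower 50%. Pericyte genes were at 608, 786 and 1145 CPM, and fast fibre genes at 297489, 272796 and 202231 CPM. Bins share the depth and section of their spots, and the bins of low score hold spots with few or no marker UMIs.

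**Figure D3:**
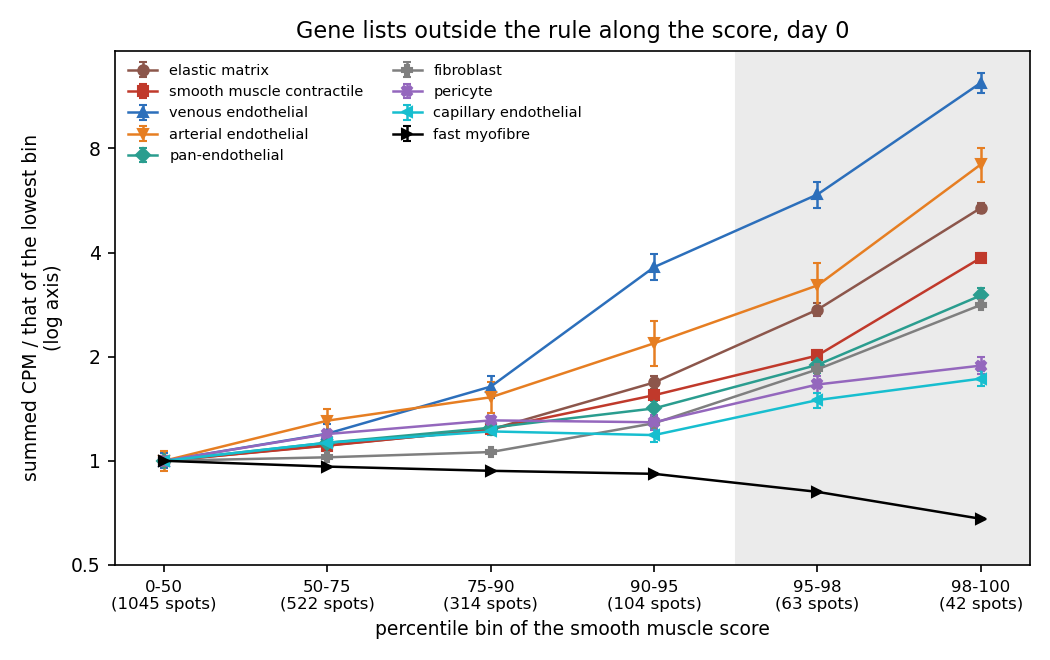
Summed CPM of gene lists outside the rule in 6 percentile bins of the smooth muscle score, divided by that of the lowest bin (log axis), day 0. Bars are exact 95% Poisson intervals and grey shading marks the smooth muscle spots; venous endothelial genes climbed from 70.2 to 869 CPM and fast fibre genes declined from 297489 to 202231 CPM.

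Among genes outside the rule with at least 100 UMIs in the section and 20 CPM or more in the smooth muscle spots, the 20 with the largest ratios included 7 from the lists (Vwf, Eln, Stmn2, Gja5, Lrg1, Ackr1 and Ppp1r14a). The others were on none of the lists. Actg2, at 21.7 CPM and a ratio of 20.5, was left out by the minimum of 100 UMIs. Cytl1, a small secreted protein, had the largest ratio of the 20, with 111 UMIs in 24 of the smooth muscle spots against 51 UMIs in all the others (48.1 against 1.23 CPM, ratio 39.2). The 5 highest spots held 62 of these UMIs, 40 of them in 1 spot, and without those 5 the ratio was 18.1 (12.0 to 27.3). The ratio of Gja5 was then 5.73 in place of 8.74. Id4, an inhibitor of DNA binding, was at 42.9 CPM against 3.06, and Slco2a1, the prostaglandin transporter, at 33.8 against 2.55. Gdf10, a ligand of the TGF-β superfamily, was at 87.1 against 7.63, and Plvap, the diaphragm protein of fenestrated and venular endothelium, at 252 against 24.3 (ratio 10.4). Further genes were Nrip2, Csf2rb2, Ccdc3, Amigo2, Sdc1, Itgb4, Sncg and Trpv4, the last an osmotically gated calcium channel, with ratios from 7.71 to 10.8. At the other end, among genes at 50 CPM or more in the other spots, the 10 with the smallest ratios were led by Actc1, the cardiac actin that skeletal muscle also makes, at 3866 CPM against 6189 (ratio 0.625). They included Mybph, Myf6 and Tceal7 and reached up to 0.698, so that none of these abundant genes was at 0.5 or lower.

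The smooth muscle spots were divided by an arterial and a venular endothelial gene. Among the 105, 21 spots had a UMI of the arterial gene Gja5 and none of the venular gene Ackr1, 36 had Ackr1 and no Gja5, 5 had both and 43 neither. In all, 26 had Gja5 and 41 had Ackr1. Of the 1985 other spots, 94 had Gja5, 251 had Ackr1 and 14 of these had both. Whether the 2 genes shared fewer spots than their frequencies imply was not tested. The division was made after the values were seen, and rests on genes seen at few UMIs per spot, so that a gene can be missed. Its depth was unequal, with a median of 18917 UMIs in the Gja5 spots and 28061 in the Ackr1 spots. The summed profiles of the 21 and 36 spots were compared over the 3405 genes with at least 50 UMIs in them. Of these genes, 1.2% were at least 2-fold higher in the Gja5 spots and 5.23% were at 0.5 or lower, and the median ratio was 0.951.

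Several endothelial genes differed widely between them. Plvap was at 16.8 CPM in the Gja5 spots and 544 CPM in the Ackr1 spots, a ratio of 0.0308 (0.0123 to 0.0639), and was seen in 5 of 21 and 33 of 36 spots. Lrg1 was at 31.1 and 408 CPM, Vwf at 151 and 494 CPM, and Slco2a1 at 9.58 and 68.1 CPM. Id4 and Ptgs1, the constitutive cyclooxygenase, were also on the Ackr1 side, at ratios of 0.105 and 0.0980. Lfng, a modifier of Notch receptors, had 1 UMI in the Gja5 spots and 60 in the Ackr1 spots. On the Gja5 side stood Sema3g (163 and 13.6 CPM, ratio 12.0), Stmn2 (ratio 6.00), Gja4 (86.2 and 11.5 CPM, ratio 7.49) and Cldn5, a tight junction gene (ratio 5.53). Without the 5 highest spots these 4 ratios were 6.92, 3.56, 4.36 and 3.10, and that of Vwf went from 0.305 to 0.133. Of the 11 genes of all endothelium, 3 lay above 1 (Cldn5, Pecam1 at 1.50 and Cdh5 at 1.11) and 8 below it, with a median of 0.707. Without those 5 spots 2 lay above 1 and 9 below it, with a median of 0.517, and Pecam1 turned direction to 0.919. Emcn, endomucin, was at 0.348 (0.203 to 0.566) and Eng, endoglin, at 0.450 (0.320 to 0.619).

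Contractile genes were higher in the Gja5 spots, but this rested on the 5 highest spots. All 10 contractile genes outside the rule with at least 100 UMIs lay above 1, with a median of 1.75. Without those spots 6 lay above 1 and 4 below, with a median of 1.02. Myh11 was at 580 CPM in the Gja5 spots and 153 CPM in the Ackr1 spots (ratio 3.79), and Acta2 at 2259 and 1174 CPM (1.92). Without the 5 spots these ratios were 1.79 and 1.05. Tagln and Cnn1 turned direction, from 1.64 to 0.732 (0.590 to 0.902) and from 1.72 to 0.614. Cytl1 was at 208 and 5.24 CPM, a ratio of 39.8 that was 15.0 without those 5 spots. Pln had 12 UMIs in the Gja5 spots and 2 in the Ackr1 spots. Actg2 went the other way, with 1 UMI in the Gja5 spots and 42 in the Ackr1 spots, where 15 of 36 held it. Eln was shared, at 1485 and 1335 CPM (ratio 1.11), but at 0.452 without the 5 highest spots. Atp2a3, a calcium pump, Pcp4l1, Sorbs2 and Cspg4 were higher in the Gja5 spots at ratios from 4.42 to 8.08, and from 2.90 to 5.80 without those 5 spots. Ccn2, a matricellular gene, was at 4.26, and at 1.9997 without the 5 highest spots. Red cell and adipocyte transcripts were higher in the Ackr1 spots. Hba-a1, α-globin, was at 156 CPM in the Gja5 spots and 948 CPM in the Ackr1 spots, and Cfd, the adipocyte protease adipsin, at 204 and 1136 CPM. The part of these cells in the other genes, such as Hp, Cdo1 and Lgals3, was not tested.

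The 5 highest spots were all Gja5 spots. They held 23 to 47 UMIs of Myh11 and 1 to 6 of Gja5, with no UMI of Ackr1, Plvap or Actg2. The spot with the most Myh11, of 27632 UMIs in all, held 227 UMIs of Eln and 40 of Cytl1. The 4 spots that came next, at 0.524% to 0.338%, held 5 to 9 UMIs of Myh11, no Gja5 or Cytl1, and 11 to 37 of Plvap. The highest of them had 71 UMIs of Vwf and 7 of Actg2. The spots that followed, at 0.332% and 0.328%, again held Gja5 and no Plvap, with 16 and 8 UMIs of Myh11. Fast fibre genes were still 9.72% to 21.0% of UMIs in the 5 highest spots.

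The same division was applied to the other sections. They had no part in ranking the genes at day 0, but the division was chosen with earlier results of these data known. The top 5% of spots by score in each section gave 9, 19 and 21 Gja5 spots and 11, 26 and 19 Ackr1 spots at days 1, 3 and 7. The 10 genes highest on each side at day 0 were then read. Many had few UMIs there, and those that met the minimum of 50 UMIs were set beside the share over all such genes. On the Gja5 side, 0, 5 and 9 of the 10 met it at days 1, 3 and 7. Of these, 0, 3 and 8 were at least 2-fold higher in the Gja5 spots, where 1.45%, 1.93% and 4.23% of genes were. On the Ackr1 side 4, 4 and 6 met it, and 1, 2 and 4 were at 0.5 or lower, where 4.83%, 2.2% and 2.73% of genes were. Plvap was at ratios of 0.252, 0.0678 and 0.121. Sema3g was at 6.15, 5.43 and 3.37, and Stmn2 at 7.69, 4.01 and 4.46. Sema3g was below the minimum of 50 UMIs at days 1 and 3, and Stmn2 at days 1, 3 and 7. At day 1 Sema3g had 12 and 3 UMIs (interval 1.66 to 34.0) and Stmn2 had 10 and 2 (1.64 to 72.2). Cytl1 was at 8.92 and 4.24 at days 3 and 7, but at 0.710 (0.221 to 2.002) at day 1, with 6 and 13 UMIs. Myh11 was at 1.77, 2.49 and 4.38, higher in the Gja5 spots of every section, with an interval that reached below 1 at day 1. It is a gene of the score, and the Gja5 spots also had the higher median score. The medians were 0.227% and 0.136% at day 1, 0.117% and 0.112% at day 3, and 0.254% and 0.141% at day 7. Spots above 0.9% numbered 5, 4 and 9 in these sections and were not left out. Actg2 had 1 UMI in the Gja5 spots and 29 in the Ackr1 spots at day 3, on the same side as at day 0. At day 7 it had 10 and 8 UMIs, or 22.5 and 31.5 CPM (ratio 0.715, 0.254 to 2.09). At day 1 it had 4 and 5 UMIs (ratio 1.23, 0.244 to 5.72). Of the 10 genes on the Gja5 side, Cytl1, Cspg4 and Sorbs2 lay below 1 at day 1 and Ccn2 at day 7 (0.942). Of the 10 on the Ackr1 side, Lgals3 and Hp lay above 1 at day 1 (1.54 and 1.68), Hba-a1 at day 3 (1.82), and Lgals3 and Cdo1 at day 7 (1.22 and 1.53), while Cdo1 had no UMI in either set at day 3. Lrg1 was at 0.864 (0.542 to 1.35) at day 1. The day 1 sets held the fewest spots and UMIs.

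**Figure D4:**
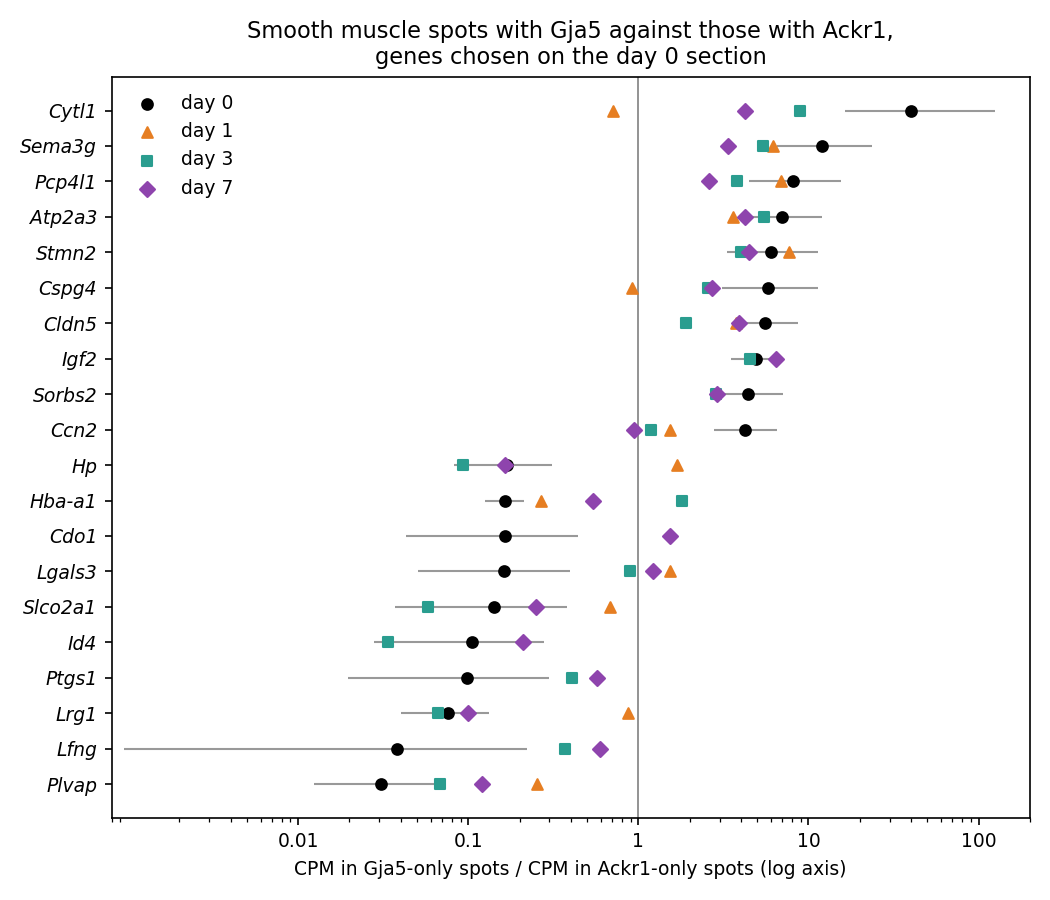
Ratio of CPM in Gja5 spots to CPM in Ackr1 spots (log axis) for the 10 genes highest on each side at day 0, among the top 5% of spots by smooth muscle score in each of the 4 sections. Points are sections and grey lines the exact 95% intervals of day 0; points with under 10 UMIs or with none in either set are left out. Sema3g and Stmn2 lay above 1 and Plvap below 1 in all 4 sections. At day 1 Sema3g rested on 12 and 3 UMIs and Stmn2 on 10 and 2.

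The spots of the section were also ranked by genes of other cell types. Of the 105, 34 also ranked in the top 5% for pan-endothelial genes, 18 for fibroblast genes, 16 for Schwann cell genes, 10 for slow fibre genes, 7 for adipocyte genes and none for fast fibre genes, where 5% of all spots rank by construction. Each of these sets had 105 spots, so that 34 shared spots were 32.4% of either set. The 6 Schwann cell genes that passed the minimum were all at least 2-fold higher, 3 of them after size factors, with a median ratio of 2.43. The 7 spots shared with the adipocyte set were 6.67%, near that 5%. Of 6 adipocyte genes 5 were at least 2-fold higher (median 3.58), with Cidec, a lipid droplet gene, at 39.0 CPM against 9.05. The list summed to a ratio of 1.15 (1.12 to 1.19), below the median of all genes, and Car3, which muscle also makes, was at 1229 CPM against 1485. All 8 macrophage genes were at 2.01 to 2.68, and 2 of them passed 2-fold after size factors. In the top 5% of pan-endothelial spots that were not smooth muscle spots, Myh11 was at 28.7 CPM and Eln at 182 CPM, well under their levels of 235 and 1006 CPM in the smooth muscle spots. In the 54 spots outside the fibroblast, pan-endothelial, Schwann cell and adipocyte sets, Myh11 was at 157 CPM and Mylk at 92.5 CPM, while Vwf was at 84.9 CPM.

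Levels in the 4 sections describe 1 section each and cannot separate the day from the section. Myh11 was at 29.0, 16.7, 15.5 and 44.4 CPM on days 0, 1, 3 and 7, and Acta2 at 208, 89.1, 176 and 258 CPM. Eln was at 145, 19.9, 35.2 and 266 CPM. Days 1 and 3 were the lowest for Myh11 and Eln and day 7 the highest, and the counting intervals of Myh11 at days 1 and 3 overlapped. Cnn1 departed from this order, at 3.97, 10.2, 2.82 and 12.6 CPM. Spots at or above the day 0 threshold were 5.02% of spots in the day 0 section. The share was 3.76% (3.00 to 4.65) on the day after injury, 2.95% (2.37 to 3.61) by day 3 and 7.06% (6.16 to 8.04) by day 7. The intervals of these shares treat spots as independent draws, which spots of 1 section are not. The day 0 share was fixed by the rule. Median depth was 21111, 7471, 16115 and 12411 UMIs in that order. With each spot thinned to 2000 UMIs, spots with at least 2 marker UMIs were 10.8%, 5.20%, 7.65% and 13.9%, which left days 0 and 7 in place and turned the order of days 1 and 3. Fewer smooth muscle cells and less of these transcripts per cell cannot be told apart. Acta2 and Tagln are also made by activated fibroblasts and young muscle, whose genes changed between sections. Postn was at 92.3, 23.0, 728 and 1351 CPM, and Myh3, the embryonic myosin, at 1.73, 1.23, 107 and 73.8 CPM. Among the top 5% of spots at day 3, Myh3 was at 399 CPM against 90.1 in the others. Their part in the score of the injured sections was not tested.

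**Figure D5:**
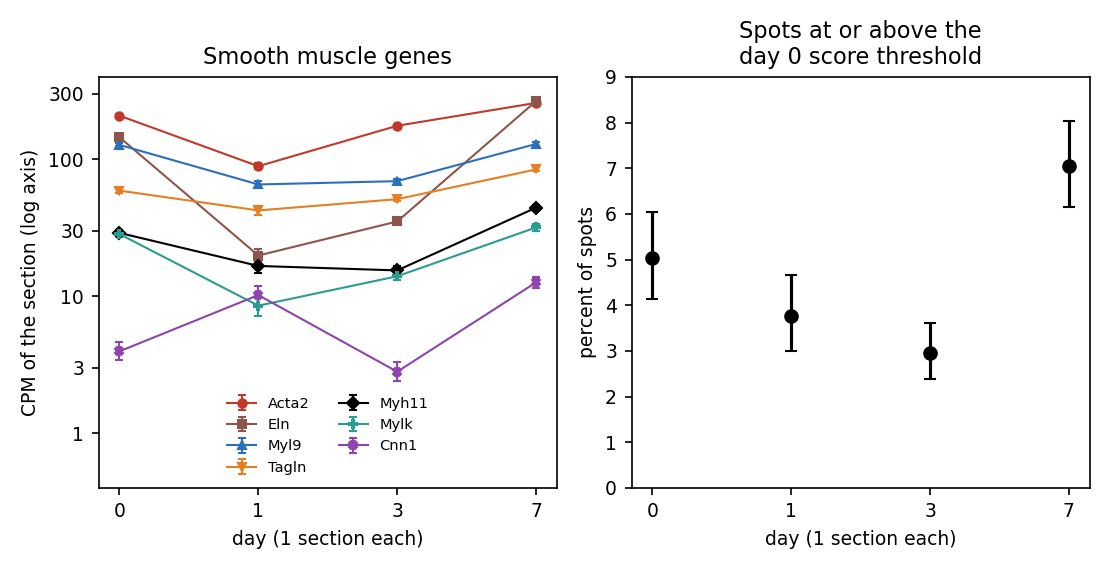
Left, CPM of smooth muscle genes in each whole section (spots of at least 2000 UMIs, log axis), with exact 95% Poisson intervals, by day (1 section each, evenly spaced). Right, percent of spots at or above the day 0 score threshold with exact Clopper-Pearson 95% intervals, which treat spots as independent draws. The day 0 share was fixed by the rule. Eln was at 145 CPM in the day 0 section, 19.9 CPM at day 1 and 266 CPM at day 7.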

How the data were processed

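Spatial RNA of 4 sections was measured on 10x Visium arrays, with RNA counts made by the authors. The deposited values are raw UMI counts per spot for 32285 features, unfiltered here but for the depth minimum. The matrix headers name Space Ranger 1.2.0, the labels and methods name other versions, and the submitters' processing notes name build mm10. Spot positions and images were not used here. Counts were summed over spots and given as CPM, with exact Poisson or Clopper-Pearson intervals (SciPy 1.17.1). Size factors came from DESeq2 1.42.0 and edgeR 4.0.16. Gene lists numbered 28, and 232 of 233 symbols matched 1 feature (Aldoa named 2). Named genes outside the rule genes were, among genes with at least 100 UMIs, the 20 with the largest ratio at 20 CPM or more in smooth muscle spots and the 10 with the smallest ratio at 50 CPM or more in others, plus list genes. The rule, the spots it chose, the gene lists and the division by Gja5 and Ackr1 were chosen with earlier results of these data known. Thinning drew 2000 UMIs per spot 20 times, except that the score from thinned spots came from 1 draw. Barcodes shared by all sections (1341) name array positions, not shared cells. The ratio code was checked on simulated data. No doublet caller or deconvolution was run. A withheld gene is not reported here.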

Additional observations from a re-analysis of the deposited data

How the results depend on the processing

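The direction of the contractile, elastic, arterial, venous, pan-endothelial, fibroblast and fast fibre lists was the same in all alternatives, but sizes depended on where the threshold lay. The summed contractile ratio of 2.61 was 2.10 at the 90th percentile and 3.45 at the 98th. It was 1.82 with the score from spots thinned once to 2000 UMIs, where ties admitted 216 spots. It was 2.26 on totals without mitochondrial, haemoglobin and myofibre genes, 2.11 with edgeR TMM factors and 2.10 with DESeq2 size factors. After the data were seen, removals of spots were added. Without the 5 spots over 0.9% it was 2.28, and without smooth muscle spots in the top 5% of another score 1.94. The count of genes at least 2-fold higher, 1443, was 734 and 2197 at the 90th and 98th percentiles, 463 with the thinned score, 893 on the reduced totals, 693 with TMM and 684 with size factors. It was 489 and 3653 with a minimum of 500 and of 1 UMI, and 571 without smooth muscle spots in the top 5% of another score. The count at 0.5 or lower, 71, was 26, 240, 19, 122, 168 and 172 in the same order as those first given above, then 156, 3 and 3896 with minimums of 50, 500 and 1 UMI, and 373 without smooth muscle spots in the top 5% of another score. Both counts stayed within 1.5 times under the remaining alternatives. Among list sums, single genes and shares of spots with a gene's UMI, 105 values moved beyond their counting interval and 70 did not. Of these values Eln in Gja5 against Ackr1 spots turned direction (1.11, and 0.452 without the 5 spots). In that comparison Tagln, Cnn1, Pecam1 and 4 of 10 contractile genes outside the rule also turned, but were not among the values counted here. Venous genes (6.90) ranged from 2.50 to 8.75, elastic genes (3.58) from 2.04 to 4.69, and pericyte genes (1.58) from 1.27 to 1.67. TMM and size factors moved the median of all genes by 0.31 on the log2 scale. No paired analysis was possible because each day has 1 section. Genes with few UMIs, such as Myocd, Actg2 and Pln, have wide intervals at this depth, and no spread between animals is known.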

Other observations

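Mast cell genes were also higher in the smooth muscle spots. All 5 mast cell genes with at least 100 UMIs were at least 2-fold higher, 4 of them after size factors, with a median ratio of 4.52. Cma1, mast cell chymase, was at 48.1 CPM against 8.04, and 47 of its 111 UMIs lay in 1 spot. Mcpt4, a second chymase, was at 41.6 against 7.92 and was seen in 28 of the 105 spots. Of 4 lymphatic genes with at least 100 UMIs, 2 were at least 2-fold higher (Lyve1 at 2.45 and Reln), 1 of them after size factors. Mmrn1, a secreted glycoprotein, had 22 UMIs in the smooth muscle spots and 27 in all the others, and Reln, reelin, was at 11.7 CPM against 2.46. Prox1, the transcription factor that defines lymphatic endothelium, had 2 UMIs in the smooth muscle spots and 58 in the others, and Pdpn was at 21.2 CPM against 16.9.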
